A study of Mus musculus with 6 samples.

Results

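The genes described here are 10 immediate early genes of RAW264.7 macrophages, chosen by name as the EGR genes Egr1, Egr2 and Egr3, the NR4A genes Nr4a1 and Nr4a2, the IER genes Ier2, Ier3 and Ier5, and Arc and Myc. All 10 were found among the 54429 genes of the deposited table, and 9 of them had a mean of at least 1 FPKM (fragments per kilobase of gene, scaled to sequencing depth, as deposited) over the 6 libraries and were tested. RAW264.7 is a mouse macrophage line. In the C/D group the cells were cultured for 3 d with GelMA/PEDOT:PSS+PLLA/PDA and received ultrasound of 48 kHz for 5 min. In the Gel/S group they were cultured for 3 d with GelMA alone and stayed static. By their usual meanings GelMA is gelatin methacryloyl, PEDOT:PSS a conducting polymer blend, PLLA a polylactide and PDA polydopamine. Each group has 3 mRNA libraries. Material and ultrasound change together, so their parts in a difference cannot be told apart, and how long after ultrasound the cells were harvested was not given. Columns of the table are headed US_M and GEL. US was taken to mean ultrasound, which the labels give to C/D alone, and every direction rests on that. Nothing in the labels says that the libraries come from separate cultures, so p-values measure only the spread between these libraries, which may be technical.

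Immediate early genes are transcribed soon after a cell is stimulated, without new protein synthesis, and most of their mRNAs decay fast. Growth factors, microbial products and stress reach them through ERK signalling to ELK factors and SRF at CArG boxes, and through CREB at cAMP response elements. In macrophages the EGR factors take part in differentiation and inflammatory transcription, while NR4A1 restrains inflammatory genes in mice. IER2 and IER5 belong to one protein family and IER3 does not. IER3 affects cell survival, and IER5 helps to activate the heat shock factor HSF1.

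Total counts were 12818831 to 15802627 in C/D and 15579679 to 16525699 in Gel/S. The macrophage list was expressed, with a summed level of 11021 to 11190 FPKM in C/D and 13540 to 14141 FPKM in Gel/S. This sum leans on the most abundant genes, of which Lyz2 had the highest mean. Of the 10 genes of the list, 9 were tested. Csf1r fell (log2 fold change −0.48, edgeR adjusted p = 0.00736), the other tested genes did not pass, and Mertk was near 0. Fibroblast genes (4 of 6 at 0 in every library) and epithelial genes (3 of 4 at 0) had no more than 1 count per gene and library. T cell genes (Cd8a at 0) summed to at most 0.317 FPKM and B cell genes (Ms4a1 at 0) to at most 0.553 FPKM. Of the 6 osteoclast genes, 2 were tested, Acp5 and Atp6v0d2, and both rose. The summed level of the list was 29.3 to 35.0 FPKM in C/D and 19.0 to 22.0 FPKM in Gel/S, and Calcr was at 0. Mitochondrial transcripts took 9.17 to 10.35% of the counts in C/D and 5.59 to 9.02% in Gel/S. Gel/S 1 had the lowest mitochondrial share and lay farthest out on the first principal component of all tested genes, at 34.6, with the other Gel/S libraries at 11.3 and 17.7 and C/D at −25.6 to −18.2. The part of these shifts in the results below was not tested. In bulk RNA a smaller number of cells expressing a gene and less RNA per cell cannot be told apart.

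Promoter sequences in the RefSeq set for build GRCm38.p6 were found for 5 of the 10 genes. All 5 are shown, because SRF and CREB are known to induce genes of this class from such windows. Of these genes, Egr2, Ier3 and Ier5 fell in C/D and Nr4a1 rose. Whether the letters of a window bear on its gene's direction was not tested. Each line gives the 250 bases before the start of transcription. CArG boxes and the core TGACG of the cAMP response element, on either strand, are in capitals. A CArG box was searched as exactly CCWWWWWWGG, where W is A or T. Variants of it with a mismatch were not searched and may be present.
Egr2, chr10:67537619-67537868, plus strand: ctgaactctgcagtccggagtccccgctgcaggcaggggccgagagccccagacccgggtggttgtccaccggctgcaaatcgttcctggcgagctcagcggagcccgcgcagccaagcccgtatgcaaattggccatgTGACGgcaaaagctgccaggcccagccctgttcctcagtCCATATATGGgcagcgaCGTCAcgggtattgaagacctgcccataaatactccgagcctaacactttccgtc
Ier3, chr17:35821463-35821712, plus strand: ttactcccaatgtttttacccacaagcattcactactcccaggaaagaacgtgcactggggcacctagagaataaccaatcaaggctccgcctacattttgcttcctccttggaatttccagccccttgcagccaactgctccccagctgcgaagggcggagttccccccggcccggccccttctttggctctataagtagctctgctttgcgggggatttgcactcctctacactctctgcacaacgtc
Ier5, chr1:155099637-155099886, minus strand: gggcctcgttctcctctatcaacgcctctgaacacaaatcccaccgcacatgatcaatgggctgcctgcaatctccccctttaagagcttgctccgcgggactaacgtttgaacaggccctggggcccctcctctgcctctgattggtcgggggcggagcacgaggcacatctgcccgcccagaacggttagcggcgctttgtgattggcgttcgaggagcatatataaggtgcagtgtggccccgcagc
Nr4a1, chr15:101266596-101266845, plus strand: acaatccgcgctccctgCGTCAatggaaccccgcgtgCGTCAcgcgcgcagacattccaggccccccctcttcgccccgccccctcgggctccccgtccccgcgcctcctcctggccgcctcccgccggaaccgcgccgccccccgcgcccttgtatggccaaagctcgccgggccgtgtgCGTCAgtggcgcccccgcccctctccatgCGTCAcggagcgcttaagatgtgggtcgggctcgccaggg
Nr4a2, chr2:57124004-57124253, minus strand: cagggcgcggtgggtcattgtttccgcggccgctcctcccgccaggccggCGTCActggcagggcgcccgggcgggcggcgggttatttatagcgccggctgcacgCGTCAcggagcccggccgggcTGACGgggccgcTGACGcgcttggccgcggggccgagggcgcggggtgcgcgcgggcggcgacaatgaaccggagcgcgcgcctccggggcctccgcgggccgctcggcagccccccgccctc
The Egr2 window is 1 of 5 for that gene, of which 4 hold a CArG box. Some of these windows overlap and share the same CArG box. The window shown holds a CArG box that begins 72 bases before the start and TGACG at 111 and 55 bases. Nr4a1 holds TGACG 4 times, at 233, 213, 69 and 40 bases, and Nr4a2 also 4 times, at 200, 144, 123 and 111 bases. Neither window has an exact CArG box. The Ier3 and Ier5 windows hold neither TGACG nor an exact CArG box. Of 32851 promoter windows of this length, 1.47% hold a CArG box and 17.8% hold TGACG. Of the other motifs searched on both strands, the E-box CACGTG (6.02% of windows) was in none of the 5 windows shown, the ETS core CCGGAA (12.0%) was in that of Nr4a1, and TATAAA (12.4%) was in that of Nr4a2. The matches do not overlap each other, and a match is a run of letters, not a shown binding site.

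Of the 9 tested genes, 6 were lower in C/D than in Gel/S, and Nr4a1 was higher. Arc, Egr2, Egr1, Myc, Ier3 and Ier5 fell, Nr4a1 rose, and Ier2 and Egr3 did not pass the test (edgeR quasi-likelihood test on counts, adjusted p under 0.05 over 11708 genes). Of all tested genes, 13.9% fell and 13.1% rose, and 27.0% changed in either direction. The median log2 fold change of C/D over Gel/S was −0.43 over the 9 genes and 0.01 over all tested genes. The FPKM of the groups did not overlap for 8 of the 9 tested genes, against 46.2% of all tested genes. With limma on log2(TPM + 1), where FPKM is rescaled to the same sum in each library, 633 of all genes rose and 1510 fell, against 1532 and 1631 in the count test, and the median of all genes was −0.12.

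**Figure D1:**
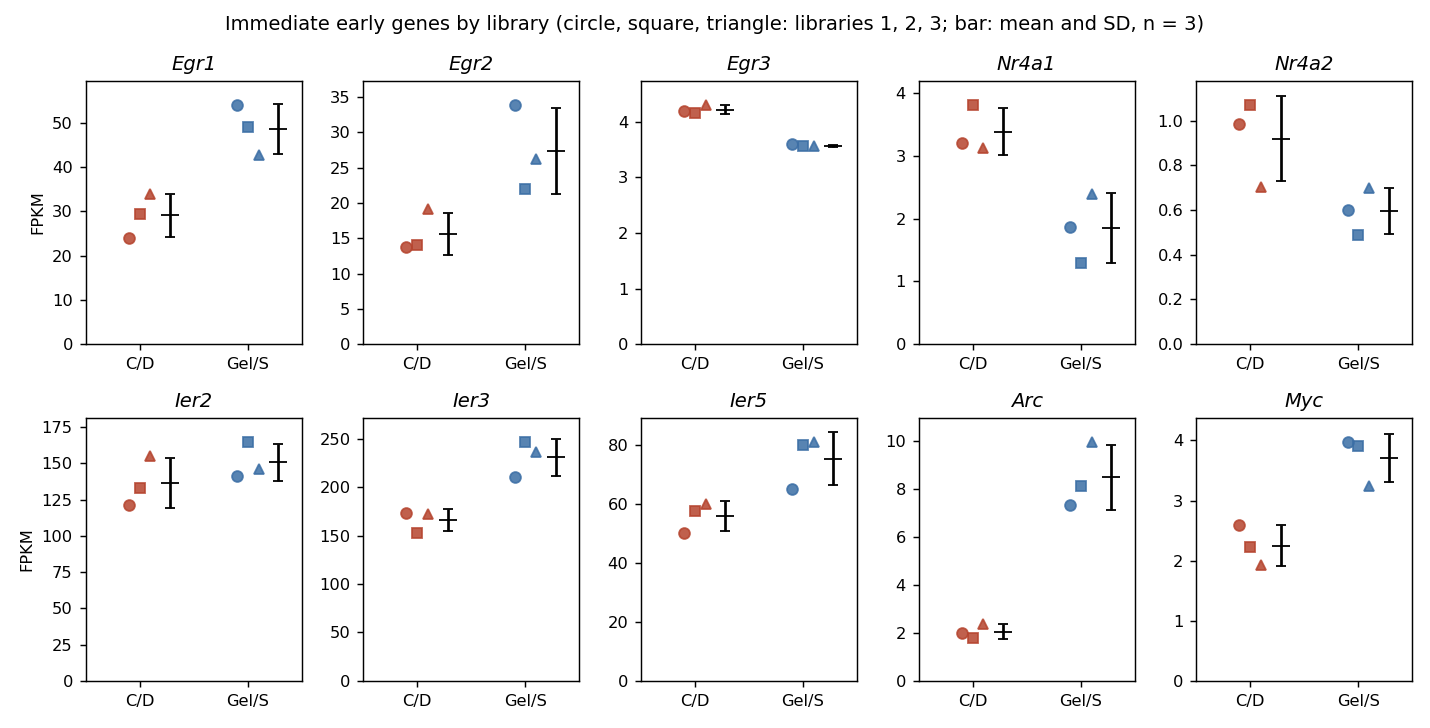
Levels of the 10 immediate early genes in FPKM (vertical axes from 0, a scale for each gene) in 3 C/D libraries (red) and 3 Gel/S libraries (blue), with the mean and SD of each group in black. The groups overlap for Ier2 and for no other gene, and Egr3, Nr4a1 and Nr4a2 are higher in every C/D library.

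The EGR genes encode zinc finger transcription factors that bind the same GC-rich site. Egr1 (chromosome 18, 34859823 to 34864984, GRCm38) had 24.0, 29.4 and 33.8 FPKM in C/D 1 to 3 and 54.0, 49.0 and 42.8 FPKM in Gel/S 1 to 3. All C/D libraries lay below all Gel/S libraries, and the log2 fold change was −0.70 (SE 0.124, edgeR adjusted p = 0.00254). Egr2 (chromosome 10, 67535475 to 67542188), which in mice is also needed for myelination, had 13.8, 14.1 and 19.1 FPKM in C/D and 33.9, 22.0 and 26.2 FPKM in Gel/S. Here too the groups were apart, and Egr2 fell by 0.76 on the log2 scale (SE 0.154, edgeR adjusted p = 0.00475). The ratio of Egr1 to Egr2 FPKM was 1.74, 2.09 and 1.77 in C/D and 1.59, 2.22 and 1.63 in Gel/S, so the values of the groups overlapped.

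Egr3 (chromosome 14, 70077203 to 70082614) had 4.19, 4.16 and 4.30 FPKM in C/D and 3.59, 3.56 and 3.56 FPKM in Gel/S. The groups did not overlap and the spread within them was small, but the log2 fold change of 0.28 did not pass after adjustment over all genes (SE 0.107, edgeR adjusted p = 0.0676), with an interval of 1.96 SE from 0.07 to 0.49. The Egr1 level was 5.73 to 7.87 times that of Egr3 in C/D and 12.0 to 15.0 times in Gel/S. Egr4 had 0 FPKM in both groups.

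The NR4A genes encode nuclear receptors that act without a known natural ligand, so their amount sets much of their activity. Nr4a1 (chromosome 15, 101254269 to 101274795) had 3.20, 3.81 and 3.13 FPKM in C/D and 1.87, 1.29 and 2.40 FPKM in Gel/S. Every C/D library was higher, and the log2 fold change was 0.91 (SE 0.203, edgeR adjusted p = 0.00762). Nr4a2 (chromosome 2, 57106830 to 57124003) had 0.985, 1.07 and 0.704 FPKM in C/D and 0.601, 0.489 and 0.698 FPKM in Gel/S, with 165 counts in the C/D libraries together and 115 in Gel/S. C/D 3 and Gel/S 3 nearly met. Its mean of 0.758 FPKM is under the minimum for the test, and without that filter its log2 fold change was 0.62 and did not pass (SE 0.252, edgeR adjusted p = 0.0724 over 23858 genes). Nr4a3, the other member of the family, had 14 counts in C/D and 8 in Gel/S in all. The ratio of Nr4a1 to Egr1 FPKM was 0.133, 0.129 and 0.0924 in C/D and 0.0347, 0.0263 and 0.0561 in Gel/S. That these do not overlap follows from Nr4a1 being higher and Egr1 lower in every C/D library.

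The IER genes were the most abundant of the 10. Ier3 (chromosome 17, 35821684 to 35822923) had 173, 153 and 172 FPKM in C/D and 210, 247 and 236 FPKM in Gel/S. It fell by 0.43 on the log2 scale (SE 0.0980, edgeR adjusted p = 0.00807). Ier5 (chromosome 1, 155096361 to 155099636) had 50.1, 57.6 and 60.1 FPKM in C/D and 65.0, 79.8 and 81.1 FPKM in Gel/S, and fell by 0.39 (SE 0.111, edgeR adjusted p = 0.0244). For both genes the highest C/D library lay below the lowest Gel/S library. Ier2 (chromosome 8, 84661331 to 84662852), a nuclear protein tied to cell motility, had 121, 133 and 155 FPKM in C/D and 141, 165 and 146 FPKM in Gel/S. The groups overlapped, and the log2 fold change of −0.10 did not pass (SE 0.108, edgeR adjusted p = 0.505), with an interval of 1.96 SE from −0.31 to 0.11.

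Arc (chromosome 15, 74669083 to 74672570) encodes a protein derived from a retrotransposon Gag that forms capsids and is known for synaptic plasticity in neurons. It had 1.99, 1.77 and 2.39 FPKM in C/D and 7.35, 8.15 and 9.98 FPKM in Gel/S, from 79, 87 and 110 counts in C/D and 359, 402 and 474 counts in Gel/S. The groups were far apart. The log2 fold change was −2.01 (SE 0.162, edgeR adjusted p = 5.16e-05), so that the C/D level was 24.8% of that in Gel/S, and 5 of the 1631 fallen genes, Arc included, had a fold change this low. Among genes that mark neurons, Snap25, Syt1 and Map2 were at 0 in every library. The summed level of the 6 neuronal genes was 2.49 to 2.73 FPKM in C/D and 1.76 to 2.20 FPKM in Gel/S. Most of it was Camk2a, whose log2 fold change of 0.32 did not pass (edgeR adjusted p = 0.0625).

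Myc (chromosome 15, 61985391 to 61990374), the growth-promoting transcription factor, had 2.60, 2.22 and 1.93 FPKM in C/D and 3.98, 3.90 and 3.25 FPKM in Gel/S. The groups did not overlap, and Myc fell by 0.68 on the log2 scale (SE 0.166, edgeR adjusted p = 0.0117). Most of the MYC family mRNA in these cells was Mycn. Mycn had 176, 220 and 203 FPKM in C/D and 221, 227 and 233 FPKM in Gel/S, which is 67.7, 99.3 and 105 times the Myc level in C/D and 55.5, 58.2 and 71.9 times in Gel/S. Its log2 fold change of −0.14 did not pass (SE 0.102, edgeR adjusted p = 0.319). Mycl had a mean of 0 FPKM in C/D and 0.00531 FPKM in Gel/S.

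**Figure D2:**
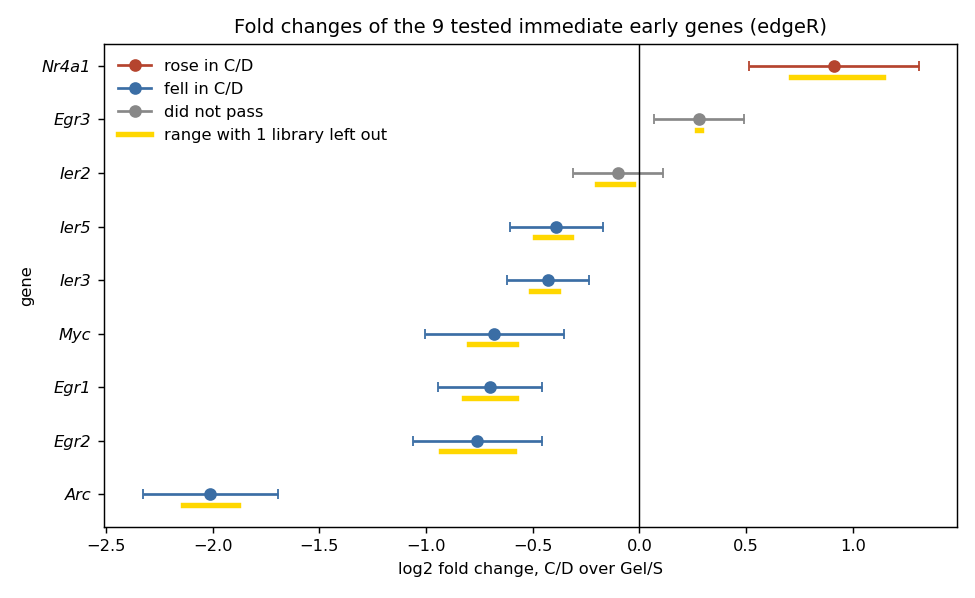
Log2 fold changes of C/D over Gel/S (horizontal axis) of the 9 tested genes, with bars of 1.96 SE; red rose, blue fell and grey did not pass at an adjusted p of 0.05. The yellow bars span the values with each library left out in turn. Arc lies lowest at −2.01 and Nr4a1 highest at 0.91, and no yellow bar crosses 0.

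Ier5, Ier3 and Myc lost their calls with some libraries left out, at similar fold changes. When C/D 1 was left out, the log2 fold change of Ier5 was −0.32, when C/D 2 was left out it was −0.41, and when Gel/S 3 was left out it was −0.33 (highest edgeR adjusted p = 0.101), against −0.39 with all libraries. That of Ier3 was −0.38 without C/D 2 (0.0537), against −0.43, and that of Myc was −0.58 without C/D 3 (0.0562), against −0.68. Calls over all genes also dropped there, to between 1804 and 1960, against 3163 with all libraries. Arc, Egr1, Egr2 and Nr4a1 kept theirs with any single library left out (highest 0.0408, for Nr4a1 without C/D 2). Nr4a1 did not pass on values rescaled to the same sum (log2 fold change 0.68, limma adjusted p = 0.0596). The authors' deposited table calls the same 7 genes at an adjusted p under 0.05. Its ratio runs from Gel/S over C/D, so a positive value is lower in C/D, and it lists 2.05 for Arc and −0.87 for Nr4a1.

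Ordered by mean FPKM, C/D cells held Ier3 (166 ± 11.3, SD, n = 3), Ier2 (136 ± 17.0), Ier5 (55.9 ± 5.22), Egr1 (29.1 ± 4.93), Egr2 (15.6 ± 2.98), Egr3 (4.22 ± 0.0729), Nr4a1 (3.38 ± 0.376), Myc (2.25 ± 0.336), Arc (2.05 ± 0.316) and Nr4a2 (0.921 ± 0.192). Of neighbours in that order, Ier3 and Ier2, and Myc and Arc, overlapped between libraries. In Gel/S cells the upper part had the same order, with Ier3 (231 ± 18.9), Ier2 (151 ± 12.6), Ier5 (75.3 ± 8.93), Egr1 (48.6 ± 5.61) and Egr2 (27.4 ± 6.02). Arc (8.49 ± 1.35) stood next, ahead of Myc (3.71 ± 0.405), Egr3 (3.57 ± 0.0184), Nr4a1 (1.85 ± 0.557) and Nr4a2 (0.596 ± 0.105). Myc and Egr3 overlapped there and no other neighbours did. No C/D library was lowest for most of the genes: C/D 1 was the lowest C/D library for 4 of the 10 genes, C/D 2 for 3 and C/D 3 for 3 (CPM). C/D 3 was the highest C/D library for 6 of the 10, and C/D 1 and C/D 2 for 2 each. In Gel/S, library 1 was lowest for 5 of the 10 genes, library 2 for 3 and library 3 for 2.

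Immediate early genes tend to be compact, with few exons. The highest number of exons in any coding form (GENCODE M21) is 1 for Ier2 and Ier5, 2 for Ier3, 3 for Egr1, Egr3, Arc and Myc, 4 for Egr2 and 8 for Nr4a1 and Nr4a2, against a median of 9 over the tested genes. The AU-rich pentamer ATTTA, a mark of short-lived mRNAs, occurred 8.16 times per kilobase of the longest 3′ UTR of Ier3, 5.52 times in Nr4a1 and 4.29 times in Myc, and 0 times in Arc and Ier2, against a median of 1.20 over 9862 tested genes. At least 3 per kilobase was reached by 3 of the 10 genes and by 17.4% of tested genes. Of these 3 genes, Nr4a1 rose and Ier3 and Myc fell. All 3 UTRs are shorter than the median, with 3 pentamers in 543 bases of Nr4a1, 5 in 613 of Ier3 and 2 in 466 of Myc. The median over tested genes was 2 in 1313 bases, each median taken separately. Ier3 and Nr4a1 were thus also above the median count, and Myc was at it.

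The NAB corepressors of the EGR factors fell. Nab2, a corepressor that EGR factors themselves induce, had 18.8, 21.4 and 20.3 FPKM in C/D and 30.1, 36.4 and 32.5 FPKM in Gel/S (log2 fold change −0.67, SE 0.0972, edgeR adjusted p = 0.000916). Nab1, its relative, fell by 0.52 (edgeR adjusted p = 0.00622). In the MYC network, Mga, which encodes another partner of MAX, rose by 0.44 (edgeR adjusted p = 0.00259), and Mxd4, whose protein competes with MYC for MAX, rose by 0.64 (0.0135). Mxd4 lost its call without C/D 1 (adjusted p = 0.0706). Max itself had 28.9 ± 0.381 FPKM in C/D and 28.8 ± 1.39 FPKM in Gel/S (edgeR adjusted p = 0.688). Of 16 relatives and partners, 12 were tested, of which 3 rose, 2 fell and 7 did not pass, with a median log2 fold change of −0.11. The other riser was Rxrb (0.28), named after its value was seen, which lost its call without each library except Gel/S 1 (highest adjusted p = 0.107). The list had 1 riser without C/D 1 and with limma on log2(FPKM + 1), and 0 on log2(TPM + 1), where Mga did not pass either (adjusted p = 0.0951).

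Of 35 other immediate early genes, 31 were tested, of which 11 fell, 3 rose and 17 did not pass, with a median of −0.21. That is 35.5% fallen and 9.68% risen, against 13.9% and 13.1% of all tested genes. Srf, the factor that binds CArG boxes, fell to 12.6, 12.1 and 11.8 FPKM in C/D, against 20.2, 19.0 and 18.5 FPKM in Gel/S (log2 fold change −0.62, SE 0.0860, edgeR adjusted p = 0.000731). Phlda1, a pleckstrin-domain protein, fell by 1.65 (edgeR adjusted p = 0.00142) and Maff, a small Maf factor, by 0.64 (0.00262). Klf10, a zinc finger repressor induced by TGF-beta, rose most of the list, with 26.2, 22.0 and 27.3 FPKM in C/D and 10.3, 11.1 and 11.6 FPKM in Gel/S (log2 fold change 1.24, SE 0.103, edgeR adjusted p = 5.85e-05). The other risers were Btg2 (0.44), which lost its call without C/D 2, C/D 3 or Gel/S 3 (highest adjusted p = 0.0916), and Fosl2 (0.27), named after its value was seen, which lost it without Gel/S 3 or any single C/D library (highest 0.0923). In the limma fits, and without C/D 2, C/D 3 or Gel/S 3, 1 rose. Fos and Jun, the AP-1 subunits, were the best known of those that did not pass, with Fos at 297 ± 55.2 FPKM in C/D and 348 ± 41.0 FPKM in Gel/S and Jun at 122 ± 24.5 FPKM in C/D and 155 ± 10.5 FPKM in Gel/S (SD, n = 3 each), and both were named after their values were seen.

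**Figure D3:**
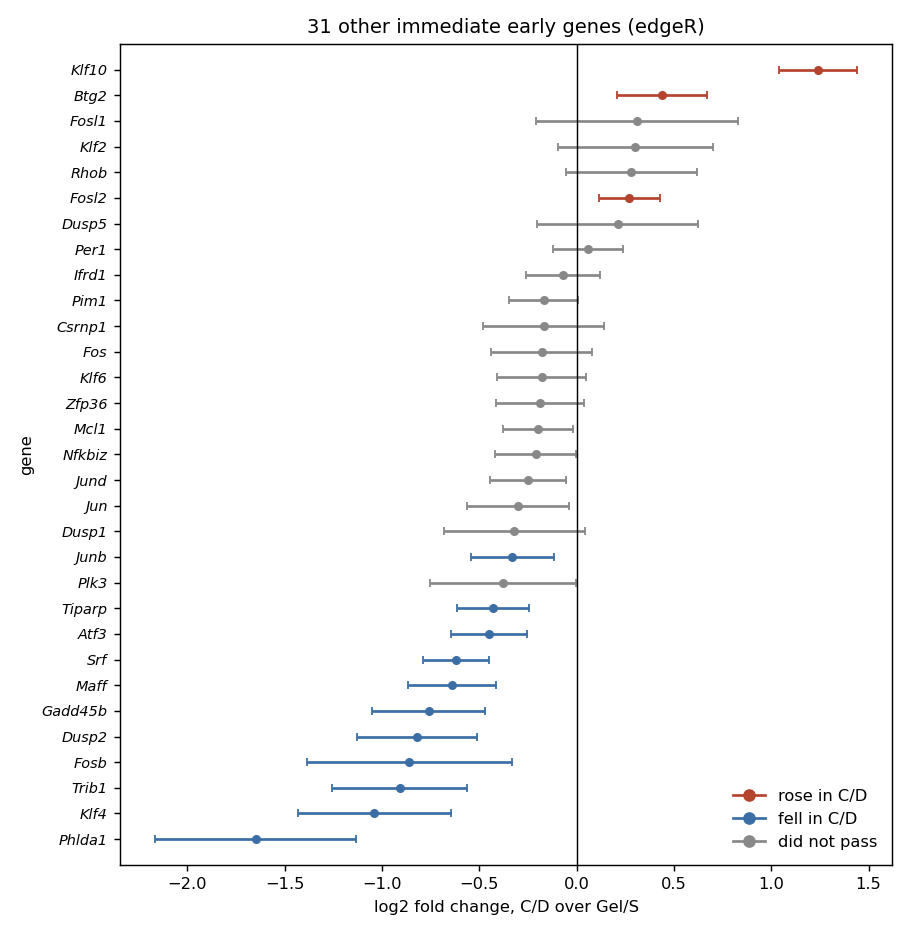
Log2 fold changes of C/D over Gel/S (horizontal axis) of 31 other immediate early genes with bars of 1.96 SE; red rose, blue fell and grey did not pass. Phlda1 is lowest at −1.65 and Klf10 highest at 1.24.

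Of 21 tested genes of the ERK, SRF and CREB routes, 4 fell (19.0%, against 13.9% of all tested genes), 2 rose (9.52%, against 13.1%) and 15 did not pass, with a median of −0.15. These shares are near those of all tested genes. Mapkapk2, a kinase that stabilises inflammatory mRNAs, fell by 0.56 (edgeR adjusted p = 0.00178), Map2k1, the ERK kinase MEK1, by 0.51 (0.00341) and the ERK-activated kinase gene Rps6ka3 by 0.44 (0.0175). Rps6ka3 lost its call without Gel/S 3 or any single C/D library (highest adjusted p = 0.0727). Elk4, an SRF partner, rose by 0.51 (edgeR adjusted p = 0.00294). The other riser was Crem (0.49) and the other gene that fell was Crtc2 (−0.33), both named after their values were seen. Crem lost its call without Gel/S 1 or any single C/D library (highest 0.0865) and Crtc2 without C/D 2 or C/D 3 (highest 0.0972), and the list had 2 fallen genes without C/D 2 or C/D 3 and 1 risen gene with any single C/D library left out.

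Among ERK feedback genes, whose mRNA follows ERK activity, 8 of 11 were tested. Falls passed for 3 of them (37.5%, against 13.9% of all tested genes) and rises for 0 (against 13.1%), and the median was −0.10. Etv5, an ETS factor, had 3.58, 3.64 and 4.94 FPKM in C/D and 11.4, 8.42 and 8.58 FPKM in Gel/S, which is a change of −1.18 on the log2 scale (SE 0.151, edgeR adjusted p = 0.000439). Spred2 fell by 0.43 (0.00622) and Spred1 by 0.41 (0.0166), both inhibitors of RAF activation. Spred1 lost its call without C/D 1, C/D 2 or Gel/S 3 (highest adjusted p = 0.0731). The 3 genes of the list under the FPKM minimum were Spry1, Spry4 and Etv4.

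Of 14 genes listed as EGR1 targets, 11 were tested, of which 6 fell, 1 rose and 4 did not pass, with a median of −0.46. The shares were 54.5% fallen and 9.09% risen, against 13.9% and 13.1% of all tested genes. Pdgfb, a growth factor chain, fell to 10.3, 12.3 and 11.6 FPKM in C/D, against 27.1, 26.7 and 25.1 FPKM in Gel/S (log2 fold change −1.16, SE 0.0894, edgeR adjusted p = 4.51e-05). Cd44, the hyaluronan receptor, fell by 0.90 (0.000322), Tnf by 0.68 (0.000456) and the adhesion molecule Icam1 by 0.64 (0.000431). Vegfa rose by 0.50 (0.00323), a call lost on rescaled FPKM. Nab2 is in this list too, and several of these genes are also targets of other inflammatory factors. Of 24 MYC targets, 23 were tested. Here 8 fell (34.8%, against 13.9% of all tested genes), 0 rose (against 13.1%) and 15 missed the threshold, with a median of −0.21. Cad, which starts pyrimidine synthesis, fell by 0.51 (0.00290), the cyclin gene Ccnd2 by 0.72 (0.00402), the chaperonin gene Hspd1 by 0.50 (0.00467) and Odc1, the first enzyme of polyamine synthesis, by 0.78 (0.00627). Without C/D 2, 5 MYC targets fell.

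Of 14 tested factors that act on AU-rich mRNAs, 4 rose (28.6%, against 13.1% of all tested genes), 2 fell (14.3%, against 13.9%) and 8 did not pass, with a median of −0.10. Zfp36l1, which directs such mRNAs to decay, rose by 0.51 (edgeR adjusted p = 0.00227), and the RNA-binding protein genes Tia1 and Tial1 by 0.41 (0.00544) and 0.35 (0.0103), while Zfp36 had a log2 fold change of −0.19 that did not pass (0.239) and was named after its value was seen. Btg2, named above, is the other riser. The rises of all 4 were lost on FPKM rescaled to the same sum, and 2 rose without C/D 3 and without Gel/S 3. The 2 fallen genes, Khsrp (−0.35) and Cnot7 (−0.31), were named after their values were seen, and neither fell without C/D 1 or without Gel/S 3 (highest adjusted p over all libraries 0.138 for Khsrp and 0.0878 for Cnot7).

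**Figure D4:**
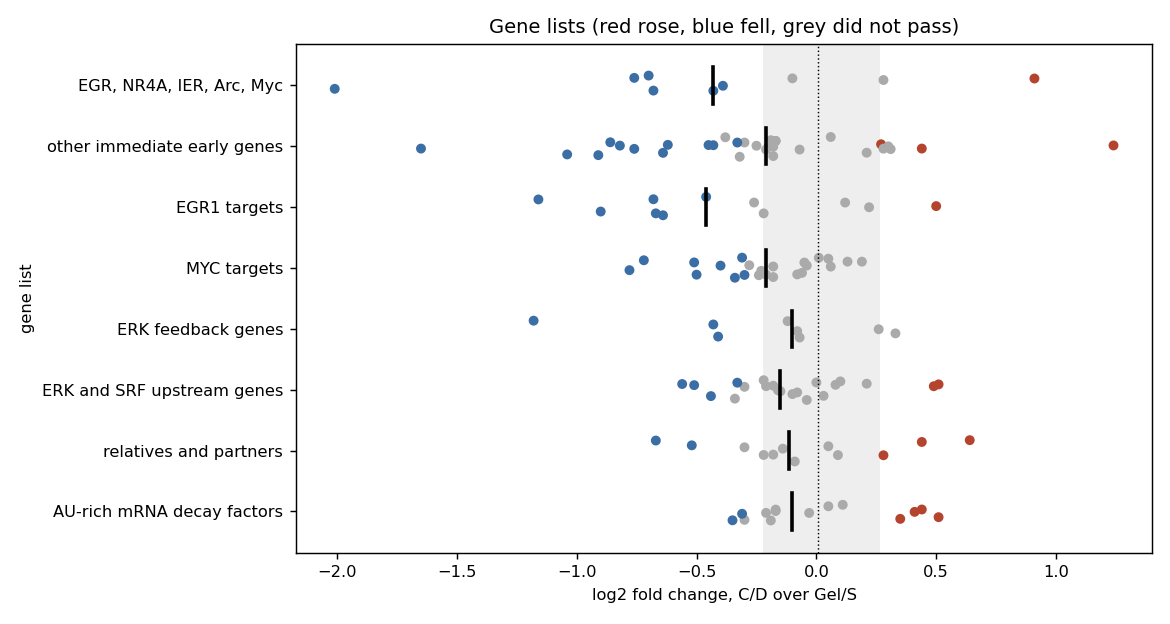
Log2 fold changes of C/D over Gel/S (horizontal axis) of the tested genes of each list (rows), with black bars at the list medians; red rose, blue fell and grey did not pass. The grey band spans the middle quartiles of all tested genes (−0.22 to 0.26) and the dotted line their median. The medians of the immediate early genes (−0.43) and of the EGR1 targets (−0.46) lie left of the band, and the others lie within it.

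The genes whose profile over the 6 libraries was nearest to each immediate early gene were found by the root mean square difference of centred log2 CPM. Arc was nearest to Phlda1 (0.275 log2 units), Gpr84 (0.314) and Sgk1 (0.315), against its own root mean square deviation of 1.01. These 3 genes fell too, which follows from how they were picked and is no separate result. Nr4a1 was nearest to Tmigd3 (0.0667), Egr1 to Rbl1 (0.0426), Egr2 to Usp1 (0.0673) and Egr3 to Neurl3 (0.0224). Ier3 was nearest to Slfn2 (0.0481), Ier5 to Cenpt (0.0114), Ier2 to Pgm1 (0.0333) and Myc to Rbm19 (0.0799). None of the 9 tested genes had another of the 9 among its 3 nearest. Nr4a2 was under the FPKM minimum and was not among the genes searched.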

How the data were processed

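Messenger RNA of RAW264.7 cells was sequenced in 3 C/D and 3 Gel/S libraries (SMARTER mRNA-Seq kit, per the labels' protocols), and the submitters' processing notes name the build GRCm38 (mm10). For the aligner, counter, annotation and strand setting nothing was stated in the sources used. Raw counts per gene and FPKM values are the authors', per the file headers. The deposited signal columns (group means of scaled counts, judging by their values) were not used, and the deposited log2 fold changes, p-values and adjusted p-values are the authors' own, whose test is not given. Of the gene IDs, 98.33% of those in GENCODE M21 have the same coordinates there.

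Symbols turned into dates (27) were restored from gene IDs, and entries sharing a symbol were summed, which left 54429 genes. Genes with a mean FPKM of at least 1 entered a two-sided quasi-likelihood test of the counts in edgeR 4.0.16 (R 4.3.3, TMM factors, Benjamini-Hochberg adjustment, threshold 0.05). A fold change is C/D over Gel/S, and its SE was taken as its size divided by the root of the F statistic. The fit was checked on simulated data, and no pair of libraries of a group agreed within sampling noise. Log2 CPM used a prior count of 2. DESeq2 1.42.0 and limma 3.58.1 served as alternatives. The genes, lists and markers were chosen with earlier results of these data known. Named were all 10 genes, up to 4 genes per list with the smallest adjusted p under 0.05, or 2 by p if none did, and the 3 nearest genes, of which the text gives the nearest except for Arc; others are given as named after their values were seen, or to show a relative, partner or marker. Overlapping genes were checked in GENCODE M21, and none of the 10 overlaps another gene.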

Additional observations from a re-analysis of the deposited data

How the results depend on the processing

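Over all genes, the calls numbered 1020 higher in C/D with limma on log2(FPKM + 1), 1008 with log2(FPKM + 0.1) and 633 with log2(TPM + 1), against 1532 in the count test. With 1 library left out they ranged from 887 to 1989 higher and from 876 to 2089 lower, and in total they were 1812, 1804, 1960 and 1892 without C/D 1, C/D 2, C/D 3 and Gel/S 3, against 3163. Among the immediate early genes, 6 fell in each of the 8 alternatives that keep all libraries and 4 to 6 with 1 left out, and 1 rose in each except on TPM, where 0 did, since Nr4a1 did not pass. None of the 9 changed direction in any alternative. Relative to the median of all genes on TPM (−0.12), Nr4a1 stood at 0.80 and Ier2 at −0.12. Of the other immediate early genes, 1 was higher in C/D in the limma fits on log2(FPKM + 1), log2(FPKM + 0.1) and log2(TPM + 1), and with 1 library left out 1 to 3 were higher and 9 to 12 lower.

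The replicate numbers are shared between the groups. Deviations of same-numbered libraries from their group means had correlations of −0.06, −0.06 and 0.05, so no shared deviation was seen. Whether same-numbered libraries were made together is not in the labels, and these values cannot decide it. 0 of the 6 libraries correlated best with its own number. With the replicate block, 1242 genes were higher and 1302 lower, and 6 immediate early genes fell and 1 rose. Nr4a2 rests on the fewest counts of the 10 genes, 165 in C/D and 115 in Gel/S.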

Other observations

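The genes around the 10 immediate early genes were looked at after the main values were known. Within 250 kb of them, 70 genes were tested, of which 6 rose and 15 fell, where 13.1% of all tested genes rose and 13.9% fell. Around Arc, 2 were tested and neither passed the test, nor did the 2 around Egr2 or the 1 around Myc. Near Egr1, Hspa9 (−0.52), Etf1 (−0.44) and Kif20a (−0.48) fell, and near Egr3, whose own change did not pass, Bin3 (−0.36), Ccar2 (−0.24) and Slc39a14 (−0.37) fell. Near Nr4a1, 5 were tested and Fignl2 rose (1.25). Near Ier3, 22 were tested, of which 2 rose and 5 fell, and near Ier2, 15 were tested, of which 3 rose and 2 fell (edgeR adjusted p under 0.05 for each).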
